A study of Mus musculus with 24 samples.

Results

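The comparison described here was the entry of STING knockout cells into the osteoclast lineage: bone marrow precursors of knockout (KO) mice after 2 days of RANKL against precursors of the same mice before RANKL. Its members were the 6 libraries labelled KO at days 0 and 2, of 24 libraries in the series, and each of the KO mice 481, 528 and 532 gave 1 library per day. Genes with a mean of at least 1 FPKM in either group were kept, 9823 of the 10721 genes in the deposited table. The donors were female and 10 to 12 weeks old, and their marrow was grown for 72 hours with 40 ng/mL of mCSF, the macrophage growth factor. Day 0 cells were collected at that point without RANKL, and day 2 cells had been replated at 25000 per well in 10 ng/mL RANKL and 20 ng/mL mCSF. The labels call these mice STING knockouts and do not describe the allele. Wild-type (WT) mice 480, 529 and 531, cultured in the same way, were used for side-by-side values. RNA of 3 wells was pooled per mouse on RANKL days, so the replicate is the mouse. RANKL, the lower mCSF, replating and time in culture changed together between the days and cannot be told apart.

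STING is an adaptor of the endoplasmic reticulum that signals when the enzyme cGAS detects DNA in the cytosol, and it drives type I interferon production through the kinase TBK1 and the factor IRF3. Osteoclasts are the bone-resorbing cells of the monocyte lineage. RANKL binds RANK on their precursors, signals through TRAF6 and NF-kB, and together with co-receptors that carry ITAM motifs switches on NFATc1, which drives genes for cell fusion, acid secretion and matrix digestion. Interferon restrains this programme, and interferon-stimulated genes are its usual readout. In bulk RNA, fewer cells of a type and less RNA per cell cannot be told apart, which applies to every fall of a cell-type marker below.

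The day set the structure of the 6 libraries. The first principal component of log2(FPKM + 1) held 90.9% of the variance and separated the days, and the second held 3.79% and set the day 0 library of mouse 481 (score 24) apart from those of mice 528 (-14.9) and 532 (-8.88). Day 0 libraries varied more, with a median SD between mice of 0.184 on the log2 scale against 0.0892 at day 2. In the day 0 library of mouse 481, 16 of 19 bone resorption genes, 14 of 18 neutrophil genes and 8 of 8 B cell genes were the highest of the 3 mice, while 42 of 57 interferon-stimulated genes were the lowest. Over all genes tested that library was the highest for 33.4% and the lowest for 3098 of 9823. At day 2 mouse 481 was again the highest for 17 of 19 bone resorption genes, against 26.5% of all genes. It was the highest for only 7 of 18 neutrophil and 1 of 8 B cell genes, and again the lowest for 44 of 57 interferon-stimulated genes. At day 2 the library of mouse 481 was the lowest for 27 of 28 mitosis genes and 31 of 35 DNA replication genes, against 3492 of all 9823 genes. Summed FPKM was 573661 to 652938 at day 0 and 463082 to 486316 at day 2, and since FPKM carries no read count the depth is unknown and no value has a counting interval. Markers matched the labels: day 0 cells expressed the macrophage genes Cd68 (1963, 1422 and 2183 FPKM) and Itgam (136, 123 and 169 FPKM), and the osteoclast genes described next rose by day 2. The targeted gene is listed under its older symbol Tmem173 and was at 5.08, 4.57 and 4.89 FPKM in KO day 0 cells of mice 481, 528 and 532, against 28.7, 25.4 and 21.3 in WT mice 480, 529 and 531. At day 2 it was at 3.70, 3.41 and 3.37 in KO and 5.28, 6.15 and 7.35 in WT, so the KO values lay below all WT values on both days, with transcript present in every KO library.

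Of the 9823 genes, 7795 (79.4%) passed an adjusted p of 0.05 (limma, paired by mouse): 3870 (39.4%) rose and 3925 (40.0%) fell. These shares are the background for every count below. A gene whose mean was under 1 FPKM on a given day was kept through the other day alone, so the filter fixed its direction. Among genes named below, this holds for the rises of Car2, Src, Calcr, Ocstamp, Oscar, Prdm1, Ppargc1b and Scin. It also holds for the falls of Irf7, Zbp1, Rsad2, Fcgr1, Ccr2 and Enpp1, among others. All changes below are differences on the log2(FPKM + 1) scale, which understates the change of low genes. A change of at least 1 was reached by 2734 genes (27.8%), of which 1231 rose (12.5%) and 1503 fell (15.3%). A change of at least 3 was reached by 110 that rose and 190 that fell. The median change was -0.01, the 2 days did not overlap for 7674 genes (78.1%), and 8645 moved in 1 direction in all 3 mice. The deposited table is marked "sig" and the rule of its selection is not stated in the labels, so adjusted p-values and shares refer to a preselected set. Whether counting used the strand is not stated either, so genes that overlap a neighbour are uncertain. Many genes named below overlap one in the annotation, on the opposite strand for Acp5, Nfatc1, Nfkb2, Itgav, Hk3, Mvd, Ctsb, Lamp1, Arsb, Ccl2, Irf7, Cxcl10, Sp100 and Stat3 among others.

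**Figure D1:**
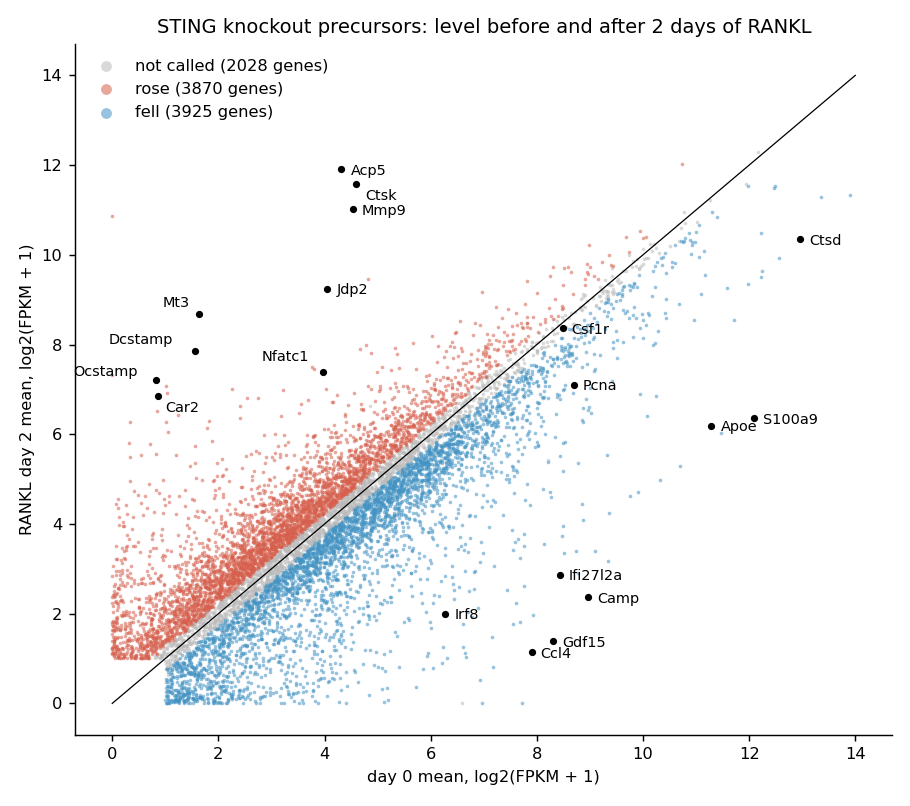
Mean level of each of the 9823 tested genes in KO cells before RANKL (x axis) and after 2 days of RANKL (y axis), both as log2(FPKM + 1), with the diagonal marking equal levels. Red genes rose, blue genes fell and grey genes did not pass adjusted p 0.05 (limma); Acp5, Mt3, Ctsk and Mmp9 lie far above the diagonal, and Gdf15 and Ccl4 far below it.

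Genes of bone resorption made up 7 of the 12 largest rises. Acp5, the tartrate-resistant acid phosphatase used to stain osteoclasts, was at 37.4, 8.75 and 10.7 FPKM at day 0 in mice 481, 528 and 532 and at 4226, 3663 and 3627 at day 2. Every day 2 value was far above every day 0 value, and mouse 481 was the highest at day 0. The change was 7.87 ± 0.29 (log2, SE, adjusted p 1.65e-07, limma), and 8.42 without mouse 481. Ctsk, the collagen-degrading cathepsin K, went from 49.3, 9.37 and 10.996 FPKM to 3497, 2832 and 2886 (7.38, and 8.002 without mouse 481). Mmp9, a gelatinase, went from 36.9, 13.1 and 16.2 to 2397, 1768 and 2042 FPKM (6.62). Several genes near or below 1 FPKM at day 0 were above 85 FPKM in every day 2 library. Car2, the carbonic anhydrase that supplies protons, went from 1.34, 0.701 and 0.417 to 121, 119 and 105 FPKM. Nhedc2, the sodium-proton exchanger now named Slc9b2, went from 1.64, 0.776 and 0.669 to 164, 123 and 115 FPKM. Mmp14, a membrane-bound matrix protease, went from 1.36, 0.965 and 0.829 to 132, 109 and 118 FPKM. Src, the kinase needed for the ruffled border, went from 1.23, 0.525 and 0.620 to 95.3, 85.4 and 92.4 FPKM. These 4 genes were between 114- and 140-fold higher in mean FPKM at day 2. Car2 and Src had day 0 means of 0.819 and 0.792 FPKM and passed the filter through day 2 alone.

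Of 19 tested bone resorption genes 16 rose, 1 fell and 2 did not pass, with a median change of 2.59. The gene that fell, chosen here after its value was seen, was Spp1, which encodes the matrix protein osteopontin: 6957, 4571 and 2863 FPKM at day 0 and 697, 811 and 671 at day 2. Ostm1 and Plekhm1, the 2 that did not pass, had values of 0.10 and -0.06 and were likewise named after their values were seen. Tcirg1, the proton pump subunit used at the ruffled border, rose from an already high level, 267, 208 and 195 FPKM, to 442, 377 and 353 (0.81 ± 0.10, log2, SE, adjusted p 0.000103, limma). Calcr, the calcitonin receptor and a late marker, was at 0.0133, 0 and 0 FPKM at day 0 and only at 3.63, 1.37 and 1.90 at day 2. In KO cells of the same mice on later days it was at 39.8 ± 7.11 FPKM at day 3 and 106 ± 13.1 at day 4 (mean ± SD, n = 3). Itgb3, the integrin beta 3 chain of the osteoclast vitronectin receptor, followed the same order of days, with 3.25, 3.24 and 3.21 at day 0, 33.7, 19.1 and 16.7 at day 2, and means of 145 and 243 at days 3 and 4. Src, by contrast, had day 3 and day 4 means of 122 and 125, close to its day 2 level. These later levels are given as values without a test.

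Sequence upstream of the 4 resorption and fusion genes with the largest rises that have a promoter entry is shown, because these genes rose together from low levels. Each is the 250 bases before the annotated start (RefSeq, GRCm38.p6), 5′ to 3′ on the gene's strand, and 21 of the 29 tested members of the resorption and fusion lists had an entry. Capitals mark matches on either strand to an AP-1 site (TGANTCA), a MiT-family E-box (TCANGTG), the NFAT core (GGAAA) or a PU.1 site (GAGGAAG).
Acp5 (chr9:22135747-22135996, minus strand): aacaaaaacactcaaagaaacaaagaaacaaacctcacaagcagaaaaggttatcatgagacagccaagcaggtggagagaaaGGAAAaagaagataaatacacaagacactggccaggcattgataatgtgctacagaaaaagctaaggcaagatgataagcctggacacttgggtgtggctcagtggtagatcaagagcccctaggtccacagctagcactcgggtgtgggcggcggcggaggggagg
Ctsk (chr3:95498960-95499209, plus strand): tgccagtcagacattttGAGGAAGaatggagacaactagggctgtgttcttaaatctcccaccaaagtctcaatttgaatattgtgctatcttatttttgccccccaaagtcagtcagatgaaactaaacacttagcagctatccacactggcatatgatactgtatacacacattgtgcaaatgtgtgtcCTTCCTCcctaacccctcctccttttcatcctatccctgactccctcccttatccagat
Slc9b2, listed as Nhedc2 (chr3:135307450-135307699, plus strand): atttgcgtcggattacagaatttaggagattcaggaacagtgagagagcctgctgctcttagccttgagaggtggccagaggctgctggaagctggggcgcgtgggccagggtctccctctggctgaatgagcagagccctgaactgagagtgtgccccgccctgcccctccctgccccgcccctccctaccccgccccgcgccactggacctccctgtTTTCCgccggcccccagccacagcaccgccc
Mmp14 (chr14:54431348-54431597, plus strand): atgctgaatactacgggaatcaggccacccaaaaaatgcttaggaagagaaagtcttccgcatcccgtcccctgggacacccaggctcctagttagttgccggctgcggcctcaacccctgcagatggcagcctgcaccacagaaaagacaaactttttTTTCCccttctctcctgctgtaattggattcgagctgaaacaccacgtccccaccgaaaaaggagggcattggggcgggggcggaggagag
The Acp5, Slc9b2 and Mmp14 stretches hold the NFAT core, starting 167, 31 and 91 bases before the start. In Ctsk the core begins at the start itself, outside the printed bases, and PU.1 matches begin 233 and 59 bases before it. The NFAT core is short and occurs in 61.3% of all 32851 promoter windows of 300 bases, so these matches do not set the genes apart. Among tested genes with an entry the NFAT core was in 64.1% and in 11 of 15 resorption genes (73.3%), and the PU.1 site in 16.4% and in 5 of 15 (33.3%), against 13.6% of all windows. The AP-1 site occurs in 7.81% of windows and the E-box in 14.3%, and neither is in these 4. The E-box was in 15.2% of tested genes and in 5 of 15 resorption genes (33.3%), and the PU.1 site also in 7 of 16 neutrophil genes (43.8%), which fell. Acp5 has 3 entries in the table and the one listed first is shown.

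Most genes of cell fusion also rose. Dcstamp, a membrane protein required for precursors to fuse, was at 3.58, 1.31 and 0.947 FPKM at day 0 and 246, 230 and 214 at day 2. Its relative Ocstamp went from 1.66, 0.317 and 0.330 to 168, 130 and 146 FPKM. Atp6v0d2, a proton pump subunit that also acts in fusion, went from 33.1, 23.9 and 25.0 to 714, 636 and 748 FPKM. The 3 genes changed by 6.39 ± 0.19, 6.47 ± 0.15 and 4.64 ± 0.11 (log2, SE, adjusted p 5.35e-08, 2.43e-08 and 2.67e-08, limma), with no overlap between days. Of 11 tested fusion genes 7 rose and 4 fell, with a median of 1.495. The 4 that fell, named after their values were seen, were Cd47, Sirpa, Adam8 and the tetraspanin Cd81, the last from a mean of 141 to 20.2 FPKM. Cd9, another tetraspanin, rose by 0.33 (adjusted p 0.0372, limma), a call that was lost without the block (0.0536) and without mouse 528 or 532.

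**Figure D2:**
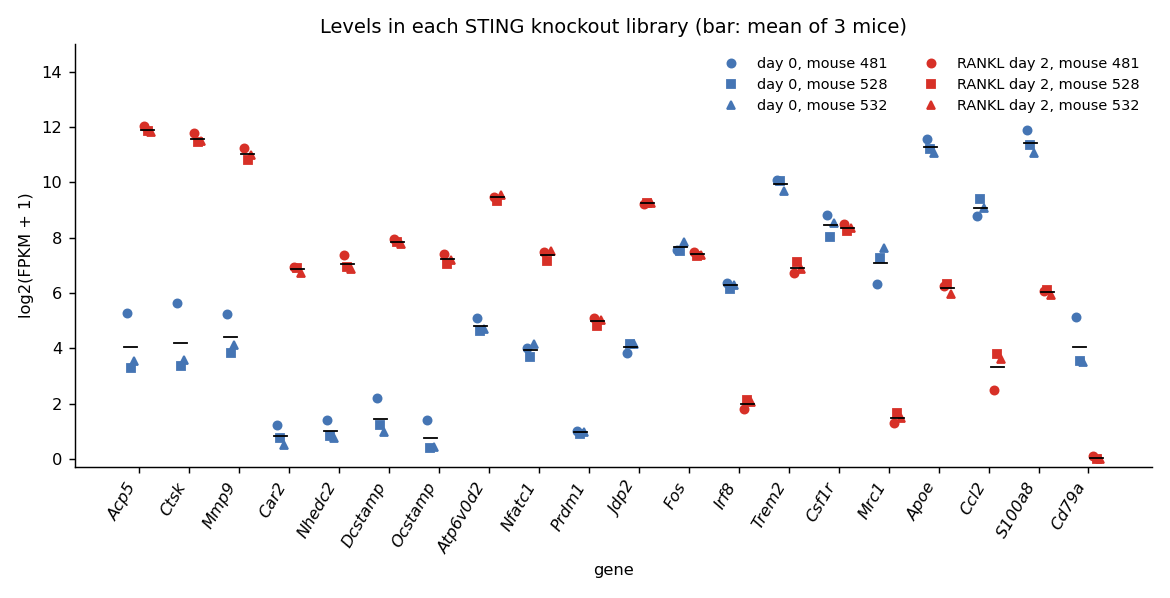
Level of 20 genes in each of the 6 KO libraries, as log2(FPKM + 1), with day 0 in blue and RANKL day 2 in red; symbols are mice and bars are means of the 3 log2 values. Resorption, fusion and driver genes (left) lie higher at day 2, repressors, macrophage, chemokine, neutrophil and B cell genes (right) lie lower, Fos lies slightly lower without passing the test, and Csf1r overlaps between the days.

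V-ATPase subunits, which build the proton pump, mostly rose, but some isoforms fell. Of 18 tested, 12 rose and 3 fell (median 0.70). Atp6v0d2 rose as above, while its widely expressed counterpart Atp6v0d1 fell from 283, 324 and 308 to 180, 191 and 187 FPKM. Atp6v0a1, the a1 subunit, fell from 123, 119 and 136 to 9.07, 9.57 and 9.22 FPKM (-3.62 ± 0.09, log2, SE, adjusted p 3.59e-08, limma), while Tcirg1, which encodes the a3 subunit, rose. Atp6v0a2, the a2 subunit, named after its value was seen, also rose, from a mean of 9.98 to 20.0 FPKM (0.96). The remaining gene that fell, the accessory subunit Atp6ap1, changed by -0.31. Atp6v1d, a subunit of the part that binds ATP, rose from 177, 185 and 163 to 449, 444 and 425 FPKM.

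Most genes of RANK and NF-kB signalling rose. Tnfrsf11a, which encodes RANK, was at 12.7, 10.95 and 10.6 FPKM at day 0 and 38.7, 34.5 and 36.6 at day 2 (1.60). Traf6, its adaptor, rose by 0.73, from 7.79, 8.41 and 9.07 to 16.8, 13.1 and 14.1 FPKM. Nfkb2 and Relb, the subunits of the alternative NF-kB pathway, rose by 2.02 and 1.23, and Nfkbia, the inhibitor that NF-kB itself induces, by 1.81. Of 21 tested RANK and NF-kB genes 17 rose, and the 1 that fell was Rela (50.1 to 34.4 FPKM in mean, named after its value was seen). The median was 1.14.

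The ITAM co-receptors split. Oscar, a collagen receptor of osteoclasts, was at 0.616, 0.0793 and 0.0767 FPKM at day 0 and 51.9, 36.7 and 42.7 at day 2 (5.17 ± 0.11, log2, SE, adjusted p 1.26e-08, limma). Trem2, another co-receptor of the list, went the other way, from 1086, 1048 and 830 to 104, 138 and 115 FPKM (-3.04). Its adaptor Tyrobp (DAP12) fell from 2478, 2044 and 1869 to 992, 1050 and 925 FPKM, and the Fc receptor Fcgr3 from 479, 361 and 550 to 20.3, 21.3 and 20.3. Fcer1g, the other adaptor in the list, named after its value was seen, fell from a mean of 3054 to 612 FPKM (-2.32). Syk, the kinase that both adaptors recruit, rose by 0.61 (adjusted p 0.000491, limma). This call was lost when all 8 groups of the series were fitted together, and Syk is listed at 0 in 1 WT day 0 library. In all, 4 of 12 tested rose and 6 fell (median -0.32).

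Most transcription factors that drive osteoclasts rose, and all tested repressors fell. Nfatc1, the master regulator, went from 15.3, 11.9 and 16.7 to 177, 143 and 182 FPKM (3.43 ± 0.09, log2, SE, adjusted p 3.59e-08, limma). Prdm1 (Blimp1), which silences repressors of the lineage, went from 1.01, 0.874 and 0.946 to 33.0, 27.0 and 31.6 FPKM. The AP-1 family members Jdp2 and Fosl2 rose by 5.19 and 4.28, Jdp2 from 13.2, 16.7 and 16.9 to 595, 602 and 612 FPKM. Fos, the AP-1 member required for the lineage, did not pass, although its days did not overlap: it was at 188, 182 and 230 FPKM at day 0 and 179, 161 and 164 at day 2 (adjusted p 0.0703, limma, and 0.0290 without mouse 481). Mitf, the microphthalmia factor, rose by 1.27, whereas its relatives Tfe3 and Tfeb, lysosomal regulators named after their values were seen, fell by 1.029 and 1.37. In all, 10 of 15 drivers rose and 3 fell (median 0.86), the third being Jund. All 7 tested repressors fell (median -2.52). Irf8, which keeps precursors in the macrophage fate, fell from 82.0, 69.6 and 77.2 to 2.45, 3.41 and 3.12 FPKM (-4.28). Id2 and Bcl6 fell by 2.52 and 0.66.

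**Figure D3:**
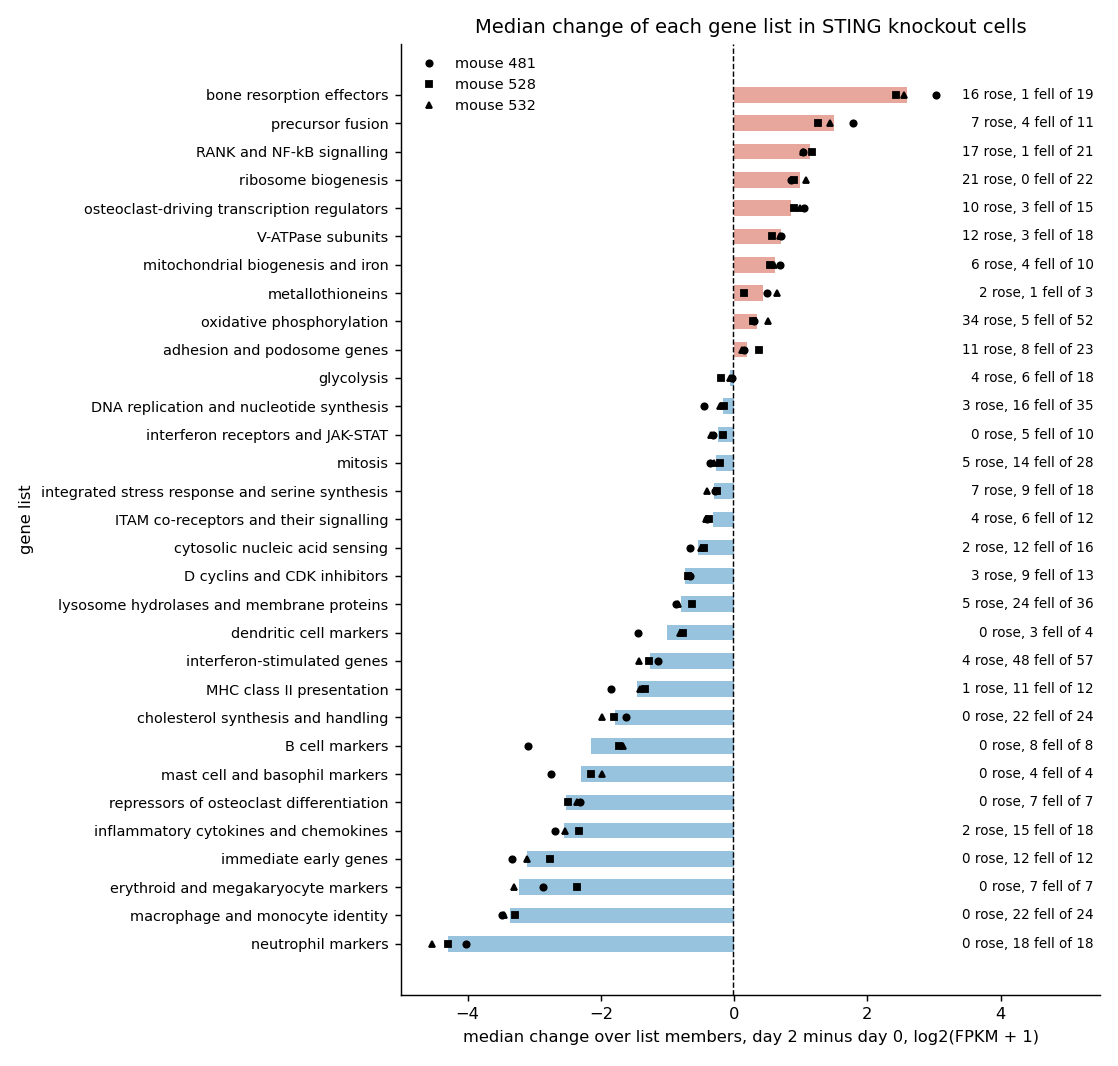
Median change of each gene list with at least 3 tested members, KO day 2 minus day 0, as log2(FPKM + 1); bars are medians of the fitted changes, symbols the median within each mouse, the dashed line the median of all genes (-0.01). Text at the right counts members that rose or fell at adjusted p 0.05 (limma) against 39.4% and 40.0% of all genes; bone resorption genes have the highest median (2.59) and neutrophil markers the lowest (-4.30).

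Integrin chains moved in opposite directions. Itgav, which pairs with Itgb3, rose from 8.58, 9.38 and 6.90 to 147, 115 and 117 FPKM, while Itgb5, the alternative partner found on precursors, fell from 48.0, 43.5 and 50.2 to 15.5, 17.3 and 16.0 (-1.48 ± 0.10, log2, SE, adjusted p 4.43e-06, limma). Actn1, an actin crosslinker of podosomes, rose by 2.08. Of 23 tested adhesion and podosome genes 11 rose and 8 fell (median 0.19). Scin, an actin-severing protein that was no list member, was among the 12 largest rises, from 0.528, 0.0612 and 0.178 to 80.0, 73.3 and 75.2 FPKM. Gsn, its relative, is listed at 0 in the day 2 library of mouse 532 and at 345 and 326 FPKM in the other two, and did not pass.

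Metallothioneins, small metal-binding proteins, moved apart. Mt3, best known from the brain, was at 5.45, 0.256 and 0.619 FPKM at day 0 and 442, 396 and 392 at day 2 (7.44 ± 0.35, log2, SE, adjusted p 5.22e-07, limma), the largest rise after Acp5, and 8.11 without mouse 481. Mt1 fell from 1221, 1725 and 1176 to 707, 857 and 757 FPKM. Mt2 rose by 0.43 (adjusted p 0.00922, limma), a call lost without the block (0.181).

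The 12 largest rises and falls each held 1 microRNA gene. Mir5133, 77 bases long at chr9:62122518-62122594 (GRCm38.p6) inside the gene Glce on the same strand, is listed at 0 in all day 0 libraries and at 161, 158 and 158 FPKM at day 2. Mir23a, 75 bases long at chr8:84208518-84208592, was at 108, 213 and 308 FPKM at day 0 and is listed at 0 in all day 2 libraries. Such short genes were measured in libraries not described as small RNA, and their values are given without a fold.

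Most genes of the respiratory chain rose. Ppargc1b (PGC-1beta), a coactivator of mitochondrial biogenesis in osteoclasts, went from 1.12, 0.842 and 0.886 to 19.0, 15.5 and 19.6 FPKM (3.28 ± 0.11, log2, SE, adjusted p 8.32e-08, limma). Tfrc, the transferrin receptor that brings in iron, rose from 75.0, 103 and 83.2 to 318, 301 and 295 FPKM. Slc40a1, the iron exporter ferroportin, fell from 27.4, 120 and 149 to 5.09, 7.40 and 7.76 FPKM (-3.39, and -3.97 without mouse 481, the lowest at day 0). Hmox1, which frees iron from heme, fell by 2.19. Of 52 tested respiratory chain and ATP synthase genes 34 rose and 5 fell, with a median of 0.35. Cycs, cytochrome c, and Cyc1, a subunit of complex III, rose by 1.56 and 1.51, whereas Ndufa4 rose by 0.39 (adjusted p 0.0133, limma, and 0.0553 without the block) and Cox5a did not pass (0.23). The 5 that fell were subunits of complex I and were named after their values were seen: Ndufa1, Ndufa2, Ndufb7, Ndufs6 and Ndufs8.

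Glycolysis showed no common direction: 4 of 18 tested genes rose, 6 fell and 8 did not pass (median -0.06). Slc2a1, the glucose transporter GLUT1, was at 27.4, 38.4 and 33.3 FPKM at day 0 and 34.9, 33.8 and 33.6 at day 2, overlapping. Hk2 and Ldha also did not pass (0.15 and -0.18). Hk3, the hexokinase of myeloid cells, fell from 172, 152 and 154 to 35.8, 44.2 and 42.2 FPKM. Ribosome biogenesis genes, in contrast, rose: 21 of 22 tested, none fell, and the median was 0.99. Polr1b, a subunit of RNA polymerase I, rose from 3.75, 4.01 and 4.71 to 14.9, 14.7 and 15.9 FPKM (1.65), Dkc1 by 1.60 and Ncl (nucleolin) by 1.09. Fbl (fibrillarin), the 1 that did not pass, had a value of 0.16.

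Nearly all genes of cholesterol synthesis and handling fell. Of 24 tested genes 22 fell and none rose (median -1.79). Fdps, the enzyme that nitrogen-containing bisphosphonates inhibit, fell from 329, 294 and 291 to 26.7, 26.4 and 22.3 FPKM (-3.55 ± 0.09, log2, SE, adjusted p 3.67e-08, limma). Mvd, which makes isopentenyl diphosphate, fell by 2.55. The exporter Abca1 fell as well, by 1.09, and Apoe, a lipid carrier of macrophages, from 3040, 2338 and 2132 to 74.3, 79.9 and 61.9 FPKM. Exact zeros in this table may be failed estimates, and 15 genes were listed at 0 in 1 or more day 0 libraries while another had at least 10 FPKM.

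Most genes of the lysosomal list fell. Of 36 tested, 24 fell and 5 rose (median -0.80). Ctsd (cathepsin D) was at 7218, 8363 and 8231 FPKM at day 0 and 1156, 1428 and 1327 at day 2, and Ctsb (cathepsin B) fell from 3716, 4094 and 4352 to 619, 684 and 647. Their changes were -2.61 ± 0.12 and -2.64 ± 0.12 (log2, SE, adjusted p 5.13e-07 and 3.64e-07, limma). Psap and Lamp1, a sphingolipid activator and a membrane glycoprotein, fell by 2.63 and 2.18. Arsb, the arylsulfatase that degrades dermatan sulfate, rose from 10.6, 12.5 and 15.7 to 208, 150 and 169 FPKM. Others that rose, named after their values were seen, include Manba, Smpd1 and Ids. Together the listed lysosomal genes made up 4.53% to 5.21% of summed FPKM at day 0 and 1.87% to 1.90% at day 2. The list leaves out Ctsk (cathepsin K) and Acp5, which were counted with the resorption genes. Their means rose from 23.2 and 18.95 FPKM to 3072 and 3839, so these shares depend on how the lists were drawn.

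Most markers of the macrophage state fell. Mrc1, the mannose receptor, went from 78.9, 153 and 195 to 1.43, 2.14 and 1.80 FPKM (-5.60 ± 0.18, log2, SE, adjusted p 8.49e-08, limma). Fcgr1, the high-affinity IgG receptor, fell from 49.0, 55.3 and 51.7 to 0.175, 0.451 and 0.234 FPKM, a 182-fold lower mean. C1qc of complement C1q fell from 618, 1012 and 951 to 17.3, 32.4 and 21.7 FPKM, and Ccr2, the chemokine receptor of inflammatory monocytes, from 38.0, 33.9 and 27.1 to 0.559, 0.898 and 0.704. Emr1, the F4/80 antigen, fell by 2.23. Csf1r, the mCSF receptor, did not pass: 444, 259 and 368 FPKM at day 0 and 360, 301 and 325 at day 2. Of 24 tested macrophage and monocyte genes 22 fell and none rose (median -3.36). The other that did not pass was Cd36, which is listed at 0 in the day 0 library of mouse 481 and at 460 and 420 FPKM in the other two.

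Most inflammatory cytokine and chemokine genes fell, and all tested immediate early genes did. Gdf15, a stress-induced cytokine, was at 353, 334 and 263 FPKM at day 0 and 1.55, 1.60 and 1.69 at day 2, a 196-fold lower mean. Ccl4 fell from 195, 308 and 212 to 0.664, 2.36 and 0.571 FPKM, and Ccl2, the main monocyte attractant, from 438, 665 and 537 to 4.65, 13.002 and 11.1. Ccl7 and Ccl6 fell by 6.60 and 5.86. Ccl9, a chemokine that osteoclasts themselves secrete, rose from 455, 529 and 489 to 814, 910 and 947 FPKM (0.86 ± 0.11, log2, SE, adjusted p 0.000116, limma). Il1rn, which encodes the interleukin 1 receptor antagonist and was named after its value was seen, was the only other inflammatory gene that rose, with 15 of 18 falling (median -2.55). All 12 tested immediate early genes fell (median -3.11), among them Atf3 from 181, 167 and 167 to 4.96, 5.30 and 4.14 FPKM and Egr1 from 31.0, 11.1 and 17.9 to 2.13, 0.905 and 1.09. Other large falls were those of Cbr2, a carbonyl reductase, Ly86, a partner of a Toll-like receptor relative, Rgs1, a regulator of G protein signalling, and Fabp4, a fatty acid carrier, at -6.37, -5.97, -5.89 and -5.73.

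Stress-response genes moved in both directions, and most antigen-presentation genes fell. Of 18 tested genes of the integrated stress response and serine synthesis, 7 rose and 9 fell (median -0.30): the factors Atf4, Atf5 and Ddit3 fell by 0.91, 2.47 and 1.83 and Phgdh, the entry enzyme of serine synthesis, by 1.84, while Asns, asparagine synthetase, rose by 0.86. Of 12 genes of MHC class II presentation 11 fell (median -1.47), with H2-Aa going from 133, 81.6 and 59.7 to 6.17, 5.06 and 3.87 FPKM and the invariant chain Cd74 from 438, 263 and 183 to 43.8, 44.0 and 34.2. Cd80, a co-stimulatory ligand named after its value was seen, was the 1 that rose.

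Proliferation genes changed little and unevenly. Of 28 tested mitosis genes 5 rose, 14 fell and 9 did not pass (median -0.27), and of 35 DNA replication genes 3 rose, 16 fell and 16 did not pass (median -0.17). Pcna, the replication clamp, fell from 379, 489 and 369 to 125, 155 and 129 FPKM (-1.58 ± 0.10, log2, SE, adjusted p 2.06e-06, limma). Birc5 (survivin) and Cenpa, a centromeric histone, fell by 1.19 and 1.034. Top2a did not pass, with 64.4, 56.7 and 62.0 at day 0 and 52.1, 65.2 and 63.3 FPKM at day 2. Mki67, a proliferation antigen, rose by 0.52 (adjusted p 0.00983, limma), a call lost without mouse 528 (0.0693) or 532 (0.0503). Rrm2, a subunit of ribonucleotide reductase, rose by 0.30 (0.0231), also lost without mouse 528 (0.161) or 532 (0.0910). Among 13 D cyclins and CDK inhibitors 9 fell, Ccnd3 by 1.65 and Cdkn2d by 2.02. The inhibitor Cdkn2b rose from 1.13, 1.94 and 1.88 to 15.6, 13.7 and 15.2 FPKM, and Cdkn1b (p27) did not pass (0.06).

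Most markers of other blood cells fell by day 2, some to values listed at 0. All 18 tested neutrophil genes fell (median -4.30), and their summed level went from 1.35% to 2.06% of summed FPKM at day 0 to 0.0433% to 0.0470% at day 2. S100a8 and S100a9, the calprotectin subunits, were at 3803, 2602 and 2153 and at 6181, 4039 and 2887 FPKM at day 0, and at 66.3, 67.5 and 59.2 and 83.5, 89.8 and 70.0 at day 2. The granule genes Camp and Ltf fell by 6.63 and 5.34 and Retnlg, a resistin-like protein of neutrophils, by 6.34. All 8 tested B cell genes fell (median -2.14, and -1.66 without mouse 481), with a summed level of 52.7 to 134 FPKM at day 0 and 0.290 to 0.452 at day 2. Cd79a was at 34.1, 10.6 and 10.2 FPKM at day 0 and 0.0674, 0 and 0 at day 2. All 7 erythroid and megakaryocyte genes and all 4 mast cell and basophil genes tested fell as well (medians -3.23 and -2.29), with the globin gene Beta-s and the protease genes Cpa3 and Prss34 listed at 0 in every day 2 library. Pf4, also made by macrophages, was the most abundant of them, at 529, 1297 and 1037 FPKM at day 0 and 21.7, 29.3 and 24.9 at day 2. Dendritic cell genes were low: Siglech, Ccr7 and Batf3 of the 4 tested fell, and Flt3 and Zbtb46 were below 1 FPKM in all 6 libraries. Cd4 alone was tested among T and NK cell markers and fell (1.98 to 0.151 FPKM in mean), Cd3e was not analysed here, and Dcn, the 1 stromal gene tested, rose to 0.711, 2.52 and 3.17 FPKM. All 9 B cell genes and all 6 mast cell and basophil genes in the table were below 1 FPKM in every day 2 library. So were Cd4 and 7 of 9 erythroid and megakaryocyte genes. Such genes passed the filter of 1 FPKM through day 0 alone, and Dcn through day 2 alone. The filter thus fixed their direction, and their counts are no independent result. The same holds for tested members of other lists that were below 1 FPKM in every day 2 library. Of members in the table, these were 5 of 24 macrophage, 5 of 18 neutrophil and 5 of 19 cytokine and chemokine genes. So were 3 of 12 MHC class II and 5 of 6 dendritic cell genes. The part of neutrophils, B cells and the other blood cells above in the falls of shared myeloid, chemokine and MHC class II genes was not tested.

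**Figure D4:**
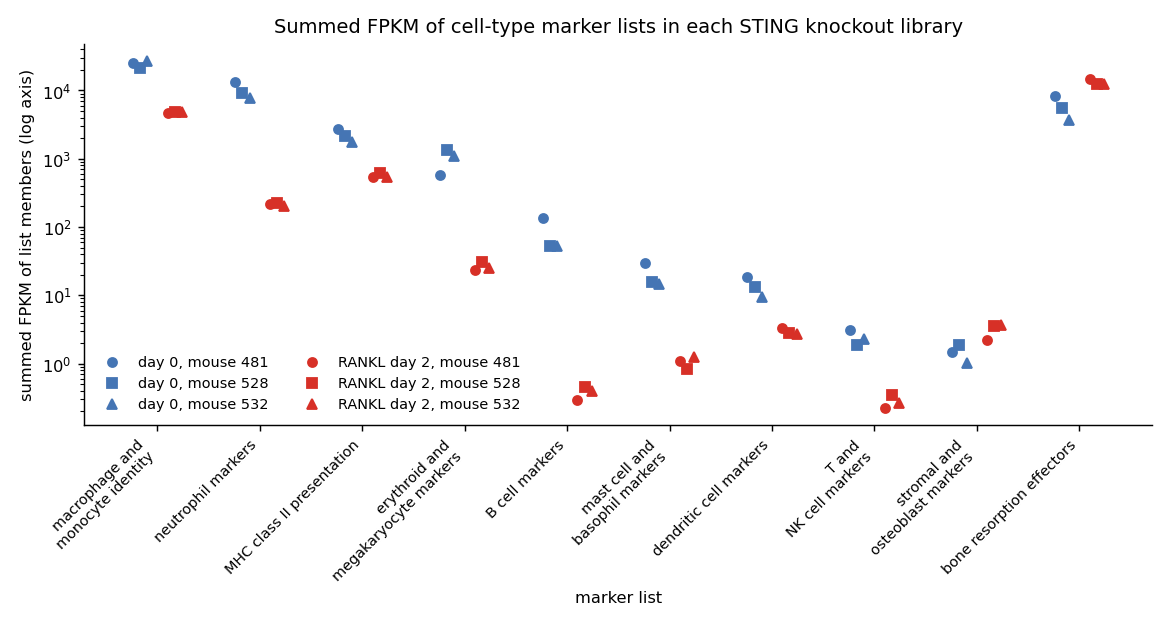
Summed FPKM of each cell-type marker list (log axis) in each KO library, day 0 in blue and RANKL day 2 in red, symbols as mice. Neutrophil markers fall from between 7748 and 13307 to between 200.4 and 226, and B cell markers from 52.7 or more to 0.452 or less. Bone resorption genes rise to 12385 or more from 8166, 5562 and 3741 in mice 481, 528 and 532. Of these day 0 sums Spp1, the member that fell, made up 6957, 4571 and 2863 FPKM.

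Most interferon-stimulated genes fell in the KO cells. Of 57 tested, 48 fell, 4 rose and 5 did not pass, with a median of -1.26. It was -1.29 without mouse 481, whose levels were the lowest of the 3 mice for most members on both days. Of the 61 members in the table, 22 were below 1 FPKM in every day 2 library. Those of the 22 that were tested passed the filter through day 0 alone. The filter thus fixed their direction, and their falls are no independent result. Isg15, a ubiquitin-like modifier, was at 11.1, 21.4 and 10.8 FPKM at day 0 and 1.17, 1.34 and 1.21 at day 2 (-2.72 ± 0.17, log2, SE, adjusted p 2.26e-06, limma). Irf7, which amplifies interferon production, fell from 10.4, 13.9 and 15.8 to 0.510, 0.871 and 0.501 FPKM, and Zbp1, a sensor of Z-form nucleic acids, from 5.61, 12.7 and 10.3 to 0.0656, 0.334 and 0.0645. Rsad2 (viperin), an antiviral enzyme, was low at the outset, 1.33, 2.57 and 2.98 FPKM, and fell to 0.0846, 0.186 and 0.0935. Ifi27l2a was the most abundant of those named and fell from 238, 513 and 285 to 5.56, 8.31 and 5.03 FPKM (-5.51). Sp100, a nuclear body protein, and Ms4a4c, a membrane protein, fell by 2.86 and 2.67. The chemokine Cxcl10 did not pass: it was at 1.55, 2.43 and 2.31 FPKM at day 0 and 1.18, 3.10 and 1.58 at day 2, with overlap. The 4 that rose, named after their values were seen, were Gbp3, Gbp7, Eif2ak2 and Tor3a. Gbp7, a guanylate-binding GTPase, went from 0.358, 0.698 and 0.876 to 5.11, 5.12 and 5.95 FPKM (1.97).

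Promoter sequence is shown for this group because many of its members are known to carry a common element. Capitals below mark matches on either strand to the interferon response element, searched as GAAA, any 2 bases, then GAAA, in the 250 bases before the start (RefSeq, GRCm38.p6), for the 3 of 4 members searched (with Irf7) that hold it. These were chosen after their values were seen.
Isg15 (chr4:156200819-156201068, minus strand): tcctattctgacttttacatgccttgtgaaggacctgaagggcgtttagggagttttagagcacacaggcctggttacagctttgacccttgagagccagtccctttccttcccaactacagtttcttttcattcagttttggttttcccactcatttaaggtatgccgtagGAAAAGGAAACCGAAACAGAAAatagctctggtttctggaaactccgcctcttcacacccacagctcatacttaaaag
Rsad2 (chr12:26456453-26456702, minus strand): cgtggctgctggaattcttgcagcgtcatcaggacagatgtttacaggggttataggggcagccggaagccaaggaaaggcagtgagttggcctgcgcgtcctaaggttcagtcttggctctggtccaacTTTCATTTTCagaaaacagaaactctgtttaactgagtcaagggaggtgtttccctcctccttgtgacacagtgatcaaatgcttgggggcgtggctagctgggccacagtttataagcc
Cxcl10 (chr5:92348890-92349139, minus strand): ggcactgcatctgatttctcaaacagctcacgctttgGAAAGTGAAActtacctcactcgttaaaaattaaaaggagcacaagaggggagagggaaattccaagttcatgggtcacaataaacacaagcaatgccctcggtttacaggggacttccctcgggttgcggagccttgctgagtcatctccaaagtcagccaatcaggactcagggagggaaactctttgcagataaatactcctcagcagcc
Isg15 holds 3 overlapping matches, the nearest beginning 66 bases before the start. Rsad2 holds 1 at 120 bases and Cxcl10 1 at 213 bases, and the Irf7 window holds none of these letters. The element occurred in 22 of 43 tested interferon-stimulated genes with an entry (51.2%), in 3.86% of the 7922 tested genes with one and in 3.44% of all windows of 300 bases. Among genes that fell by at least 1 it occurred in 7.72%, and among those that rose by at least 1 in 2.95%. Isg15 and Rsad2 fell and Cxcl10 did not pass, so genes with a match did not share 1 behaviour.

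Most genes of nucleic acid sensing fell, and the interferon receptor and JAK-STAT genes fell or did not pass. Of 10 interferon receptor and JAK-STAT genes 5 fell and none rose (median -0.24): Ifnar2, a chain of the type I receptor, from 110, 113 and 126 to 48.7, 55.1 and 54.2 FPKM, Ifngr1 by 1.24 and Stat3 by 0.63. Ifnar1, the other chain, fell by 0.34 (adjusted p 0.0122, limma, and 0.0964 without mouse 532). Jak1 did not pass (0.22, adjusted p 0.126, limma), but was called at 0.38 without mouse 532 (0.0252). Of 16 nucleic acid sensing genes 12 fell and 2 rose (median -0.54). Ikbke, a kinase related to TBK1, fell from 27.3, 26.3 and 28.4 to 2.98, 3.77 and 3.69 FPKM. Enpp1, which hydrolyses the STING ligand cGAMP, fell from 7.93, 6.80 and 9.40 to 0.276, 0.246 and 0.308 FPKM. Tbk1 rose by 0.34 (0.00974, limma, and 0.0552 without mouse 528). The gene for cGAS, listed as E330016A19Rik, fell by 0.28 (0.0287), and this call was lost when any of the 3 mice was left out. Transcript of the targeted gene, Tmem173, fell by 0.38 (0.00725) in these KO cells.

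In WT cells 76.4% of 9820 tested genes passed (37.8% rose and 38.6% fell), and the difference between the KO and WT responses was tested directly over 9890 genes. No gene passed (0.00%) at adjusted p 0.05 (limma, 12 libraries, mouse as a block), 444 (4.49%) had an unadjusted p under 0.05, and 50.3% had a positive difference, which means a higher day 2 minus day 0 change in KO. Rsad2 changed by -1.52 in KO and -3.39 in WT, a difference of 1.87 ± 0.22 (SE, adjusted p 0.112, limma). This passed without the block (0.0266), with all 8 groups of the series fitted together (0.000326) and with all 8 groups and no block (0.0011). Its WT day 0 levels were 13.4, 10.3 and 13.4 FPKM, above all KO day 0 values, and its day 2 levels were 0.120, 0.262 and 0.429, of which 1 lay within the KO range. Isg15 showed the same order, at 70.9, 39.8 and 56.5 in WT at day 0 and 2.19, 1.15 and 2.31 at day 2, with a difference of 1.57 ± 0.23 (SE, adjusted p 0.187, limma, and 0.0267 without mouse 528). Cxcl10 was at 10.3, 8.71 and 11.7 in WT at day 0 and 1.44, 3.06 and 3.68 at day 2, a difference of 1.53 ± 0.27 (SE, adjusted p 0.447, limma). Tmem173 differed by 1.47 ± 0.20 (SE, adjusted p 0.162, limma), which also passed without the block (0.0152), with all 8 groups (0.000585) and with all 8 groups and no block (0.000177). All 58 interferon-stimulated genes in that test had a positive difference (median 0.56), and 36 had an unadjusted p under 0.05, where 2.66% of all genes had such a p with a positive difference. Without WT mouse 480, 52 of 58 were positive with a median of 0.37. Since Rsad2, Isg15, Cxcl10 and the targeted gene Tmem173 had higher WT than KO levels at day 0, their difference of responses cannot be told apart from their difference at the start.

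**Figure D5:**
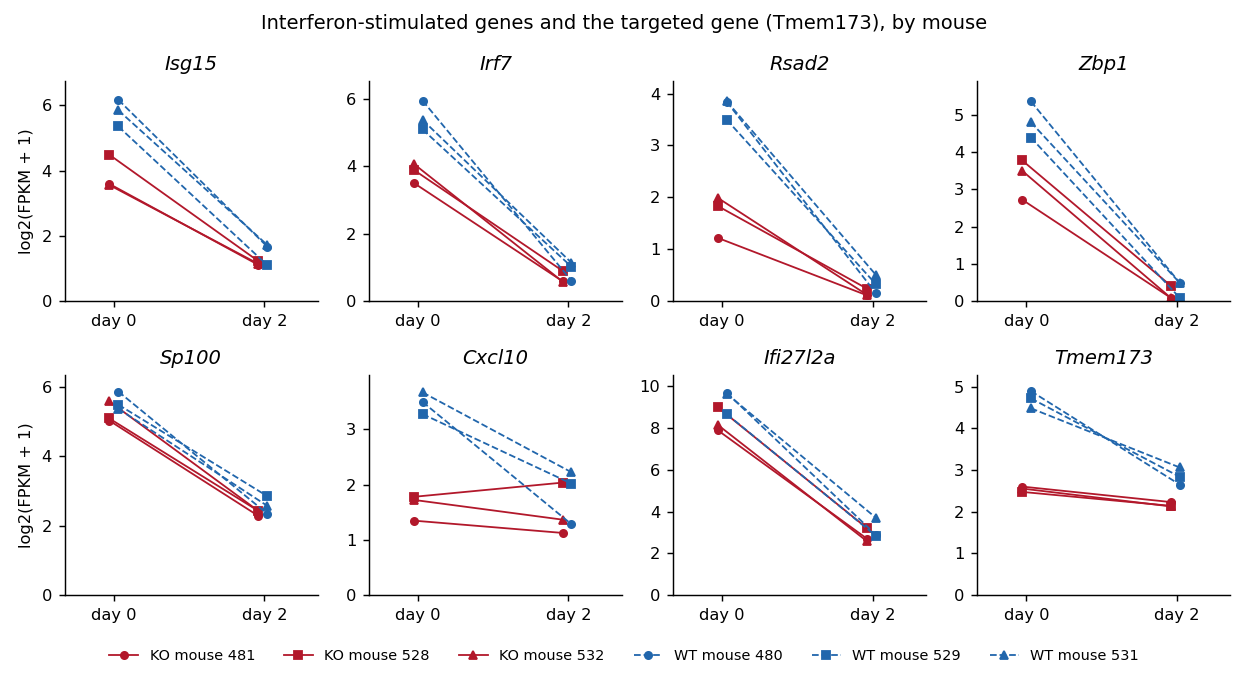
Level of 7 interferon-stimulated genes and of the targeted gene Tmem173, as log2(FPKM + 1), at day 0 and day 2 in each KO mouse (red, solid lines) and WT mouse (blue, dashed lines). WT lines start above KO lines for Isg15, Irf7, Rsad2, Zbp1, Cxcl10 and Tmem173 and come close to them at day 2.

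The osteoclast programme itself gave no difference that passed. Acp5 changed by 7.87 in KO and 7.25 in WT, Ctsk by 7.38 and 6.60, Nfatc1 by 3.43 and 3.48, and Dcstamp by 6.39 and 6.12, with adjusted p of 0.976, 0.976, 0.992 and 0.976 for the differences (limma). All 19 resorption genes had a positive difference (median 0.29), 2 of them with an unadjusted p under 0.05 and none without mouse 532, when 17 were positive. Of 18 V-ATPase genes 16 were positive (median 0.29), with 6 such p-values, and of 52 respiratory chain and ATP synthase genes 49 (median 0.18), with 4. Fusion, driver, and RANK and NF-kB genes had 8 of 11, 10 of 15 and 9 of 21 positive, with 1 such p-value each. Of 28 mitosis genes none had a positive difference (median -0.36) and 12 had an unadjusted p under 0.05. That number was 1 without the block, 4 without mouse 481 and 7 without mouse 480. For Mki67 the KO change was 0.52 and the WT change 1.18, from 34.7, 20.7 and 28.4 FPKM in KO and 15.8, 19.9 and 16.7 in WT at day 0. A test that misses its threshold with 3 mice per genotype does not show that the responses are alike.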

How the data were processed

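RNA-seq was made from cultures of 3 KO and 3 WT mice at RANKL days 0 and 2, 12 of the 24 libraries, and the later KO days are given only as levels. The authors deposited 1 table of FPKM values (fragments scaled by gene length and library size) for 10721 genes, and HISAT2 2.0.5, Cufflinks 2.2.1, Cuffdiff and mm10 are named per the submitters' processing notes. No counts were used, so no count model was run. Genes with a mean of at least 1 FPKM in either group were tested on log2(FPKM + 1) with limma 3.58.1 (R 4.3.3, trended variance), the mouse as a block, and Benjamini-Hochberg adjustment over all genes tested at 0.05. The difference between genotypes was fitted over 12 libraries. Day 0 and day 2 libraries of 1 mouse share a donor, and their deviations from the mean of each day correlated at 0.104, 0.264 and 0.347. All pairs of different mice were below 0, which centring on 3 mice favours once same-mouse values are positive, so this is no separate support. The KO fit had 2 residual and 5.97 prior degrees of freedom. On simulated data the KO fit recovered 1.49%, 64.2% and 93.9% of changes of 0.5, 1 and 2, with 5 false calls. The difference fit recovered 1.49%, 44.8% and 95.5%, with 4 false calls. Only 200 genes were changed, and the simulated spread included the differences between mice. These shares are therefore not the power of the real fits.

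Named genes are the targeted gene, the 12 largest rises and falls among named genes whose days do not overlap, and in each of 33 lists its key members and the 3 members with the smallest adjusted p. Members and lists were chosen with earlier results of these data known, so no list count is independent support. Exceptions within a list, such as Jund, Atp6ap1, Cd36 and Gsn, were named after their values were seen. Some genes that the rule names are not reported here. Of 638 listed genes 579 were in the table, 9 under older symbols matched through RefSeq, and the others, such as Jun, Il6 and Elane, were not analysed here. Alternatives changed the pseudocount, filter, scaling, block, groups fitted, variance trend and mice used.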

Additional observations from a re-analysis of the deposited data

How the results depend on the processing

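Changing the filter, block, groups fitted or variance trend leaves the estimated change of each gene as it was, so those runs could not reverse a direction. With the other pseudocount, with median scaling and with a mouse left out, no called gene that was still tested changed direction. The count of 7795 was 6211 with a filter of 5 FPKM, 8373 with no filter, 7315 without the block (3634 rose and 3681 fell) and 6927 to 7539 when a mouse was left out. Genes past a change of 1 numbered 3367 with a pseudocount of 0.1, and 3902 rose and 3888 fell with median scaling. The difference between genotypes called 0 genes in the paired fit. It called 4 without the replicate block, 6 with all 8 groups and the block, and 7 with all 8 groups and no block, and leaving out 1 mouse gave 0 to 4. Gm8615, Ifit3, Rsad2 and Tmem173 were called in those 3 fits, joined by Oasl1 and Usp18 with all 8 groups and the block, and by Mx1, Usp18 and I830012O16Rik with all 8 groups and no block. Genes at an unadjusted p under 0.05 fell from 444 to 173 without the block and to 192 without mouse 532, and numbered 743 with all 8 groups and the block; the cause was not tested.

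List medians changed sign for glycolysis (0.037 with a filter of 5 FPKM), the stress response (0.030 with no filter and with 5 FPKM) and stromal genes (-0.11 with no filter), where the genes tested change. Leaving out mice took Slc2a1 from -0.084 to 0.17, Top2a from -0.14 to 0.11, Cdkn1b from -0.10 to 0.22, Cxcl10 from -0.29 to 0.017 and Csf1r from -0.24 to 0.017. The difference of responses of Mir1945 ran from -0.087 to 7.02. The read depth is unknown, so its part in any value was not tested.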
